A study of Mus musculus with 5 samples.

Results

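The genes described here are 35 immediate-early and heat-shock stress genes, taken from a list of names drawn up with earlier results of these data known, out of 31053 genes in single-cell count matrices of sorted mouse liver cells. Their RNA was counted in 5 libraries from male Rosa26mTmG;Col1a1-Cre mice on C57BL/6J background. In these mice the Col1a1 promoter drives Cre, so that cells which have used the collagen promoter turn from tdTomato to GFP. Mice received diethyl nitrosamine (DEN, 10 mg/kg) at an age of 2 weeks and a liquid Western alcohol diet (WAD, 3.5% v/v ethanol) for 5 months from an age of 6 weeks, or saline and chow. Livers were perfused in situ with pronase and collagenase, and cells were sorted by GFP and by the autofluorescence of vitamin A, the retinoid that quiescent stellate cells store. The 5 groups, each a single library, were VitA+Col1a1+ cells of DEN+WAD mice (10481 cells), VitA-Col1a1+ cells of DEN+WAD mice (2729 cells), VitA+Col1a1+ cells of chow mice (259 cells), VitA-Col1a1+ cells of chow mice (668 cells) and a library labelled VitA-Col1a1- of DEN+WAD mice (9870 cells). How many mice gave each library is not given in the sources used here.

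With 1 library in each group, no difference between groups was tested. Values carry 95% intervals for counting error only, and each gate and treatment cannot be told apart from the library that holds it. All cells passed through the same enzyme perfusion and cell sorting, and the part of that handling in the levels of these genes was not tested. Total UMIs, the molecules counted, were between 6145748 and 149936344 per library, with a median of 9106 to 24077 per cell. The median mitochondrial share was 2.701% to 2.93% of a cell's UMIs across the 4 Col1a1+ libraries, but 3.61% in the one labelled VitA-Col1a1-. At most 21 cell barcodes were shared by any pair of libraries. The library labelled VitA-Col1a1- held 1.11 times the Col1a1 RNA of VitA-Col1a1+ DEN+WAD, so its RNA goes against its label, and no direction is drawn from the label.

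Immediate-early genes are the first genes that cells transcribe after a stimulus, without new protein synthesis. The products of the Fos and Jun genes pair to form the transcription factor AP-1, Egr proteins are zinc-finger factors, and Nr4a proteins are orphan nuclear receptors. The heat-shock genes encode chaperones, which fold and refold proteins. The inducible ones are switched on when the factor HSF1 binds heat shock elements, runs of the short unit nGAAn in alternating orientation, in their promoters. Both programs are known to be switched on in many tissues when cells are taken apart, and AP-1 is also known from the activation of stellate cells.

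Promoters of 28 of the 35 genes were found among the RefSeq sequences of GRCm38.p6, the other genes being Fosl1, Egr1, Egr3, Ier2, Arc, Hsp90aa1 and Hspa8. The 150 bases before the start site are shown for 3 chaperone genes and for Fos and Jun, as examples of the 2 kinds of stress gene. Capitals mark a heat shock element, searched as GAANNTTC or TTCNNGAA, letters that read the same on both strands.
Hspa1a, chr17:34972157-34972306 (- strand): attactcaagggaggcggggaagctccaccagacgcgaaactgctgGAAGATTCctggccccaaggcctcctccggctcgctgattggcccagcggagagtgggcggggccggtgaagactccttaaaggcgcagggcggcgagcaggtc
Hspa1b, chr17:34959239-34959388 (- strand): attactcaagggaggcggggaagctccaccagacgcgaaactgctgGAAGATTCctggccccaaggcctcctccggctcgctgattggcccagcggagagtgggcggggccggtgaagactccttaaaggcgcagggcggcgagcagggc
Hspb1, chr5:135887769-135887918 (+ strand): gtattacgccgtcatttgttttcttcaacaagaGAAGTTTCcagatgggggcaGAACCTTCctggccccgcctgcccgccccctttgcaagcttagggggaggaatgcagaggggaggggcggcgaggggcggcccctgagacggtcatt
Fos, chr12:85473740-85473889 (+ strand): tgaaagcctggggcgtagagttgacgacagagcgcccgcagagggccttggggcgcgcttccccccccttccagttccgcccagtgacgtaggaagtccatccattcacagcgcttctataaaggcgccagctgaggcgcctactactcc
Jun, chr4:95052223-95052372 (- strand): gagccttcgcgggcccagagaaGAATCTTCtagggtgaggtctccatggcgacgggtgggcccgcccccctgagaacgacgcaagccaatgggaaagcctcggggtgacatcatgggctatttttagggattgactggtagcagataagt
The Hspa1a and Hspa1b promoters were identical at 149 of 150 bases and carried the element 104 bases before the start site. Hspe1 and Hspd1, which face away from each other on chromosome 1, share between them a run of 3 overlapping elements at chr1:55088059-55088076, shown on the strand of Hspe1.
Hspe1: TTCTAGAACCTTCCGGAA
In windows from 250 bases before to 50 bases after the start site, 9 of the 10 chaperone and Bag3 genes with a sequence held the element, all but Dnajb1. It stood in 3 of 18 early genes (Jun, Fosl2 and Egr2) and in 17.0% of the 27025 genes with a window. The cAMP response element TGACGTCA stood in Btg2 and Dusp1 among the early genes and in 2.03% of all genes. The CArG box, bound by serum response factor, was matched in Zfp36 and Egr2 and in 1.81% of all genes. These matches describe letters and not binding.

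The 35 genes together made up 5.52%, 4.72%, 3.80%, 2.87% and 2.66% of all UMIs in VitA+Col1a1+ chow, VitA+Col1a1+ DEN+WAD, VitA-Col1a1+ DEN+WAD, VitA-Col1a1+ chow and the library labelled VitA-Col1a1-. Lists of 5 values follow this order of libraries throughout. Of the 50 most abundant genes of each library, 9, 8, 5, 3 and 3 were members. Jun ranked 7, 10, 14, 30 and 26 among all genes, whereas Hspa1b ranked 9, 29, 60, 283 and 149. Levels are CPM, counts of UMIs per 1000000 UMIs of the library. They count molecules by their 3′ ends and are compared between genes without division by length.

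**Figure D1:**
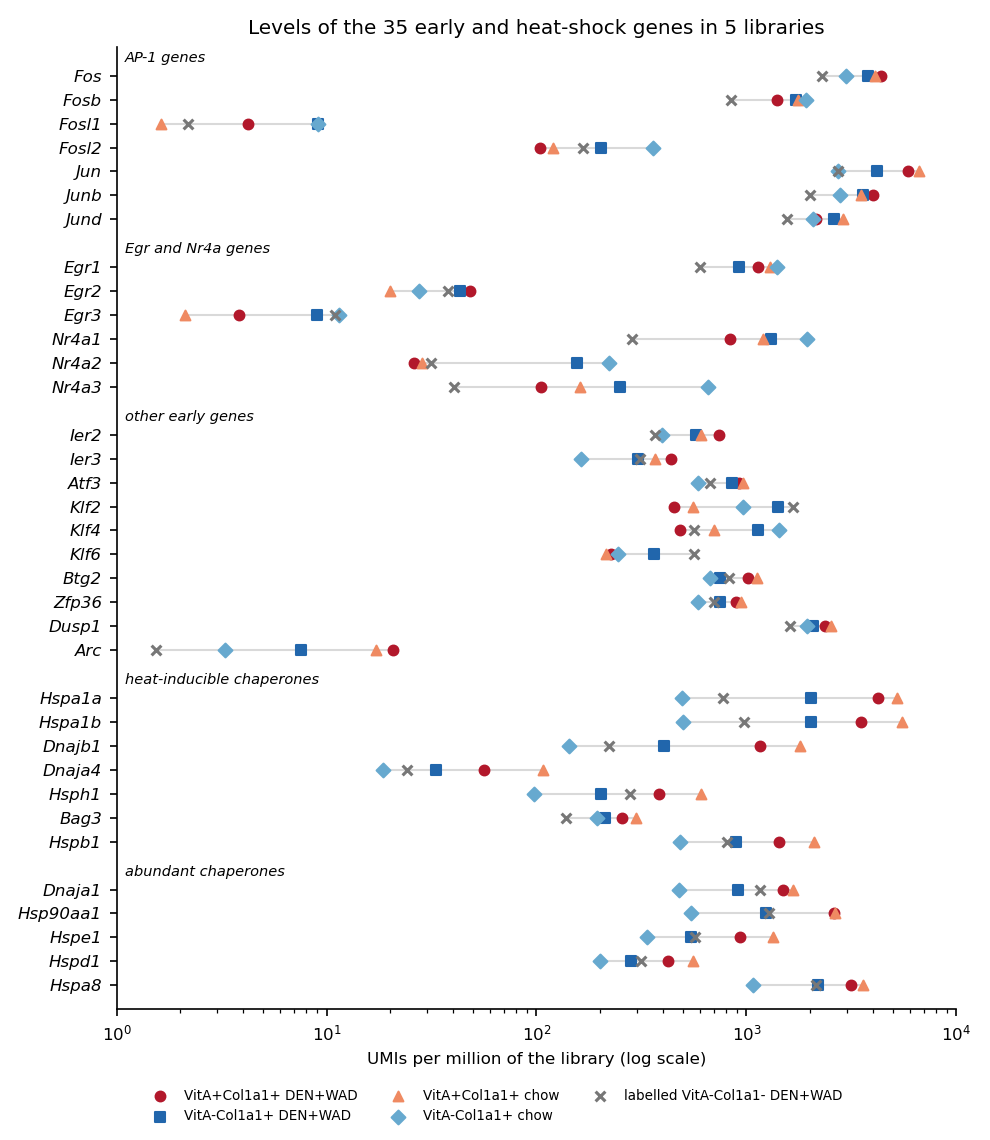
Level of each of the 35 genes in each of the 5 libraries, in UMIs per 1000000 UMIs (CPM) on a log scale, with genes grouped by role. Coloured markers are libraries and the grey line spans the lowest to the highest. Most chaperone lines are long, with VitA+Col1a1+ chow at the high end and, except for Bag3, VitA-Col1a1+ chow at the low end. Lines of most AP-1 genes are short.

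By CPM, the early and the chaperone sums fell in the same order over the 4 Col1a1+ libraries, but over ranges of different width. The 13 Fos, Jun, Egr and Nr4a genes summed to 2.18%, 2.01%, 1.88%, 1.71% and 1.06% of UMIs, so that the 4 Col1a1+ libraries lay close together. The 11 Hsp and Dnaj genes summed to 2.51%, 1.94%, 1.08%, 0.437% and 0.855%, a range of 5.75-fold. Each of the 12 genes in the chaperone groups (the 11 and the co-chaperone Bag3) stood highest in VitA+Col1a1+ chow, second in VitA+Col1a1+ DEN+WAD, then in VitA-Col1a1+ DEN+WAD and lowest of these 4 in VitA-Col1a1+ chow. Neighbours in the order could lie close, as with Hsp90aa1 at 2653 and 2601 CPM in the VitA+ libraries. Of all 10056 genes past a filter of a mean of 5 CPM, 7.5% had that order and 10.8% the reverse. Of the 23 early members, Jun, Atf3, Btg2, Zfp36 and Dusp1 had the order of the chaperones, and Egr3 the reverse. With TMM scaling, added after the data were seen, 10 of the 12 chaperone genes and none of the 23 early members had the order. In Lrat-positive cells alone, each of the 12 had it.

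Hspa1a and Hspa1b encode the inducible Hsp70, whose RNA is scarce in unstressed cells. Hspa1a stood at 5226 CPM (95% interval 5169 to 5283) in VitA+Col1a1+ chow, 4214 in the same gate with DEN+WAD, 2020.0 in VitA-Col1a1+ DEN+WAD, 494 (483 to 505) in VitA-Col1a1+ chow and 774 in the labelled library. Hspa1b, from the neighbouring gene on chromosome 17, stood at 5481, 3528, 2027, 499.8 and 978. The pair kept the same order of libraries. The 2 transcripts share 1350 of the 2868 stretches of 100 bases of Hspa1a but 0 of 401 in the last 500 bases, from which these libraries are made.

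Dnajb1 encodes an Hsp40 that delivers clients to Hsp70, and it stood at 1795, 1155, 404, 142 and 222. Its range from the highest to the lowest library, 12.6-fold, was the widest of the chaperones. Hsph1, an Hsp110 that recharges Hsp70 with ATP, stood at 607, 383, 203, 97.6 and 279.7. Dnaja4, another Hsp40, was the scarcest at 107, 56.5, 33.3, 18.6 and 24.3. Hspb1, a small heat-shock protein that holds unfolded clients, stood at 2108, 1428, 894, 483 and 809. Bag3, the co-chaperone that routes clients of Hsp70 and small heat-shock proteins to autophagy, varied least of this group, at 298, 254, 212, 195 and 138. It was the only one of the heat-inducible genes that was lowest in the labelled library.

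The abundant chaperones, which cells also make without stress, followed the same order over narrower ranges. Hspa8, the constitutive Hsc70, stood at 3594, 3141, 2202, 1075 and 2141. Hsp90aa1, the inducible form of Hsp90, stood at 2653, 2601, 1237, 546 and 1275. Dnaja1, an Hsp40 partner of Hsc70, stood at 1673, 1495, 907, 476 and 1159. The mitochondrial chaperonin genes had the same order. Hspe1, which encodes the lid of the chaperonin, stood at 1331, 927, 547, 337 and 571, and Hspd1, which encodes its barrel, at 558, 422, 281, 201 and 316. From the highest to the lowest library these 5 genes spanned 2.78-fold (Hspd1) to 4.86-fold (Hsp90aa1), and the 7 heat-inducible genes 2.16-fold (Bag3) to 12.6-fold.

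Among the AP-1 genes, Jun was the most abundant, at 6670.3 CPM in VitA+Col1a1+ chow, 5885 in the same gate with DEN+WAD, 4205 among VitA-Col1a1+ cells with DEN+WAD, 2724 with chow and 2744 in the labelled library. Fos, its usual partner, stood at 4117, 4361, 3800.0, 2973 and 2294. Jun spanned 2.45-fold and Fos 1.90-fold. Junb, which forms weaker AP-1 than Jun, stood at 3526, 4026, 3584, 2797 and 2004. Jund, the Jun gene least dependent on stimuli, stood at 2888, 2139.6, 2626, 2070.4 and 1561. Fosb, a further partner of Jun, was highest in VitA-Col1a1+ chow, at 1752, 1397, 1720.0, 1930.1 and 847. Fosl2, which encodes the Fos-related factor Fra-2, was also highest in VitA-Col1a1+ chow, at 120.2, 104, 204, 360.1 and 167. Fosl1, the gene of Fra-1, stayed between 1.63 and 9.15.

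Nr4a genes were on the side of the VitA- gate. Nr4a1, the early gene also called Nur77, stood at 1195, 835, 1313, 1944 and 284. Nr4a2 stood at 28.6 and 25.96 in the VitA+Col1a1+ chow and DEN+WAD libraries, at 221 and 155 in the VitA-Col1a1+ chow and DEN+WAD libraries, and at 31.5 in the labelled library. Nr4a3 stood at 161, 105, 249.9, 653 and 40.7, the widest range of any member at 16.1-fold. All 3 were highest in VitA-Col1a1+ chow, the library in which the 11 Hsp and Dnaj genes were lowest. Egr1, the serum-induced zinc-finger factor, stood at 1294, 1134, 925, 1404 and 602, lowest in the labelled library. Egr2 stood at 20.01, 48.2, 43.2, 27.7 and 37.9, with DEN+WAD above chow in both gates. Egr3 was near the limit of naming, at 2.12, 3.81, 9.01, 11.4 and 10.996.

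The other early genes had a summed level of 0.802%, 0.754%, 0.822%, 0.698% and 0.728%, the least varied of the 5 role groups, but single genes crossed. Dusp1, a phosphatase that shuts off MAP kinases, stood at 2537, 2354, 2069, 1932 and 1606. Zfp36, which encodes tristetraprolin and speeds the decay of cytokine mRNA, stood at 945, 891, 752, 589 and 701. Atf3, a stress-induced factor of the ATF family, stood at 963, 919, 857, 586 and 673. Btg2, an antiproliferative gene, stood at 1119, 1022, 744, 673 and 823. None of these 4 spanned more than 1.66-fold. Ier2 stood at 607, 738, 575, 397 and 367 and Ier3, a survival gene, at 365, 435, 303, 163 and 312. Klf2, the shear-stress factor of endothelium, stood at 554, 451, 1421, 961 and 1673. Klf4 stood at 697, 485, 1134, 1426 and 559.7 and Klf6 at 215, 227, 362, 245 and 564. The 3 Klf genes were thus lower in the VitA+Col1a1+ libraries than in the VitA-Col1a1+ library of the same treatment. Arc, known from neurons, was scarce at 17.2, 20.7, 7.56, 3.27 and 1.54.

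The first comparison was of DEN+WAD with chow, the injury of the study against its control, within each gate. Among VitA+Col1a1+ cells the chaperones were lower after DEN+WAD. The Hsp/Dnaj sum had a log2 ratio of -0.38 (95% counting interval -0.38 to -0.37), and the Fos/Jun/Egr/Nr4a sum -0.12 (-0.13 to -0.11). Of the 33 members past a filter of a mean of 5 CPM, 1 was at least 2-fold higher (Egr2, 2.41-fold, 2.01 to 2.90) and 0 at least 2-fold lower. Over all 9592 genes past the filter, 0.97% were 2-fold higher and 3.11% lower. The median log2 ratio of the members was -0.19, and of all genes -0.07. Dnajb1 stood at 1155 against 1795, a ratio of 0.644 (0.631 to 0.656), and Hspa1b had a ratio of 0.644 (0.637 to 0.651). TMM scaling shifted every log2 ratio of this pair up by 0.19. It brought the log2 ratio of the Fos/Jun/Egr/Nr4a sum to 0.071, the other side of 0, and placed 15 instead of 7 of the 33 members above 1. Jun, Nr4a2, Atf3, Btg2, Zfp36, Dusp1, Dnaja1 and Hsp90aa1 changed side, and Hspa1a, Hspa1b and Dnajb1 did not.

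Among VitA-Col1a1+ cells the chaperones were higher after DEN+WAD. The Hsp/Dnaj sum had a log2 ratio of 1.30 (1.29 to 1.31) and the heat-inducible group 1.59 (1.57 to 1.60). Hspa1a was 4.09-fold higher (3.99 to 4.19), Hspa1b 4.06-fold (3.96 to 4.15) and Dnajb1 2.84-fold (2.71 to 2.97). Past the same filter, 7 of 35 members were at least 2-fold higher. These were Hspa1a, Hspa1b, Dnajb1, Hsph1, Hsp90aa1, Hspa8 and the scarce Arc. At 7.56 against 3.27 CPM, Arc passed the filter only through the DEN+WAD library. The lone member at least 2-fold lower was Nr4a3, at 0.383-fold (0.372 to 0.393). The background was 4.39% of 10241 genes higher and 4.94% lower. The members' median log2 ratio was 0.53, and that of all genes -0.03. The Fos/Jun/Egr/Nr4a sum differed little, with a log2 ratio of 0.14 (0.13 to 0.14). Jun was 1.54-fold and Fos 1.28-fold higher, while Nr4a1 at 0.676-fold, Nr4a2 at 0.704-fold and Egr1 at 0.659-fold were lower.

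**Figure D2:**
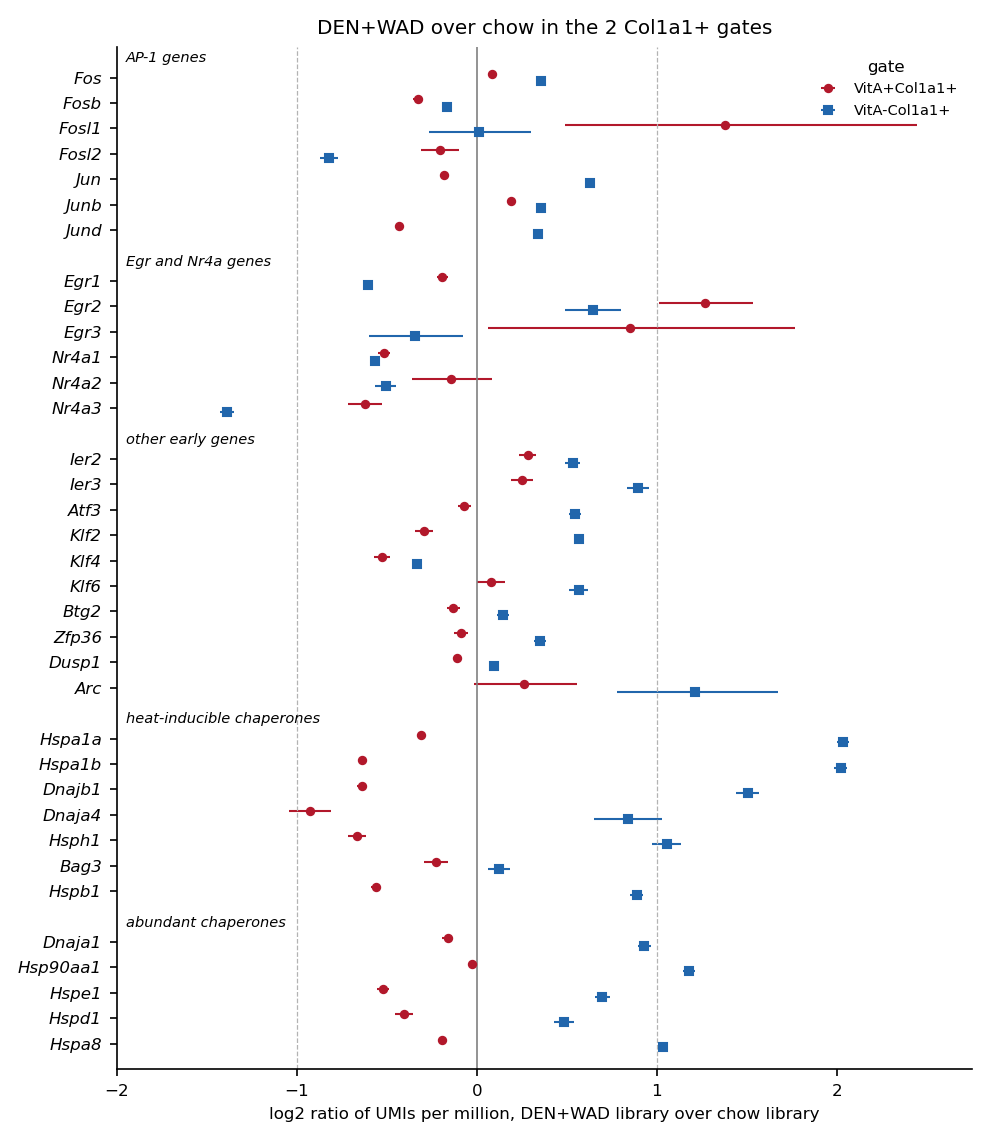
Log2 ratio of DEN+WAD over chow for each gene, with 95% counting intervals, in the VitA+Col1a1+ libraries (red circles) and the VitA-Col1a1+ libraries (blue squares); dashed lines mark a 2-fold difference. Chaperone squares lie right of 0 and chaperone circles left of 0, that of Hsp90aa1 close to it, with the widest gap at Hspa1b.

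Marker RNA of other cell types differed as well in the VitA-Col1a1+ pair. In the Lrat-positive cells described further on, a list of 10 stellate markers summed to 33217 CPM after DEN+WAD and 13493 in chow, and a list of 8 portal fibroblast markers to 1694 and 5257. The part of this difference in the chaperone ratio was not tested. In the VitA+Col1a1+ pair the stellate sums were 50400.2 after DEN+WAD and 47476 in chow, and the portal fibroblast sums 87.2 and 25.4. Under both treatments the stellate sum was thus higher, and the portal fibroblast sum lower, in the VitA+ than in the VitA- gate. In bulk sums of this kind, fewer cells of a type and less RNA per cell cannot be told apart.

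The second comparison was of the VitA gates within a treatment, which share libraries with the first. In chow livers, VitA-Col1a1+ cells had 0.174 times the Hsp/Dnaj level of VitA+Col1a1+ cells (log2 -2.52, -2.54 to -2.51). Hspa1a had a ratio of 0.0945 (0.0922 to 0.0969), Hspa1b 0.0912 (0.0889 to 0.0935) and Dnajb1 0.0793 (0.0757 to 0.0831). All 11 Hsp and Dnaj genes, Jun, Ier3 and Arc were at least 2-fold lower, 14 of 35 members, where 5.37% of 10168 genes were. The 6 members at least 2-fold higher were Nr4a2 (7.71-fold, 6.62 to 9.02), Nr4a3 (4.05-fold), Fosl2 (2.995-fold), Klf4 (2.05-fold), Fosl1 and Egr3, where 10.5% of all genes were. Fosl1 (9.07 against 1.63 CPM), Egr3 (11.4 against 2.12) and Arc (3.27 against 17.2) passed the filter only through the library where they were higher. In VitA+Col1a1+ chow, Fosl1 had 10 UMIs and Egr3 13, so these 2 are not read. The median log2 ratio of the members was -0.61 and of all genes 0.06.

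After DEN+WAD both sums differed in the same directions, with smaller ratios, though the change in ratio was not tested. The Hsp/Dnaj sum had a log2 ratio of VitA- over VitA+ of -0.85 (-0.85 to -0.84), and the Fos/Jun/Egr/Nr4a sum -0.09, against -0.35 in chow. Most of the 13 genes of the latter sum went the other way, with 9 higher in VitA- cells in chow and 8 after DEN+WAD. At least 2-fold lower were Hspa1a, Dnajb1, Hsp90aa1 and Arc, 4 of 35 members, where 1.65% of 9905 genes were. At least 2-fold higher were Nr4a2 (5.98-fold, 5.76 to 6.22), Klf2 (3.15-fold), Nr4a3 (2.38-fold), Klf4 (2.34-fold), Fosl1 and Egr3, where 8.64% were. Fosl1 and Egr3, at 4.23 and 3.81 CPM in the VitA+ library, again passed the filter only through the VitA- library. With TMM factors 5 members were higher and 6 lower. The summed level of the Egr and Nr4a genes was higher in the VitA- gate under both treatments, with log2 ratios of 0.66 in chow and 0.33 after DEN+WAD. That of the AP-1 genes was lower, with -0.57 and -0.15. Single genes were mixed. Higher in the VitA- gate were 6 of 6 Egr and Nr4a genes in chow and 4 of 6 after DEN+WAD, and 3 of 7 and 4 of 7 AP-1 genes.

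Related genes outside the 35 were read from lists of the same kinds. Of 24 other chaperone genes and HSF1 targets, none differed 2-fold with DEN+WAD in either gate. In chow livers the VitA- gate had Hsp90ab1, the constitutive Hsp90, at 1433 against 3051 CPM, and the ubiquitin gene Ubb at 1450.2 against 3079.8. These were among the 3 of 24 genes at least 2-fold lower there, where 5.37% of all genes were. The 1 gene at least 2-fold higher was Hspa2, a scarce Hsp70 gene, at 2.98-fold, where 10.5% of all genes were. Of 9 regulators, among them the heat-shock factors and serum response factor, none differed 2-fold in the 4 comparisons. Hsf1 stood at 33.7, 30.3, 30.6 and 26.8 in the 4 Col1a1+ libraries, in the order used above. None of the 10 measured genes of the endoplasmic reticulum stress list did either.

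Of the 30 other early genes past the filter, 5 were at least 2-fold higher in the VitA- gate of chow livers and 5 lower, where 10.5% and 5.37% of all genes tested were. The growth arrest genes Gadd45g (251 against 15.6) and Gadd45b (1017 against 102) were highest, with ratios of 16.1 and 9.99. Gadd45a, of the same family, was lower, at 29.3 against 96.98. With DEN+WAD, Cebpd, an acute-phase factor, was higher in both gates, 2.35-fold in VitA+ and 2.98-fold in VitA-. From the list of inflammatory genes, the chemokine genes Cxcl2 (4.25-fold and 3.87-fold), Ccl2 (3.49-fold and 3.62-fold) and Cxcl10 (2.65-fold and 2.91-fold) were higher in VitA+ and VitA- cells respectively. In all, 5 of 6 measured genes of that list were at least 2-fold higher in VitA+ cells and 3 of 8 in VitA- cells, where 0.97% and 4.39% of all genes tested were.

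Cells were then split by a UMI of Lrat, which encodes the enzyme that esterifies retinol in stellate cells, of Pecam1, an endothelial surface protein, or of C1qa, a complement subunit made by macrophages, leaving out cells with more than 1 of these genes. Lrat-positive cells were 10039, 1767, 233, 466 and 3065 in VitA+Col1a1+ DEN+WAD, VitA-Col1a1+ DEN+WAD, VitA+Col1a1+ chow, VitA-Col1a1+ chow and the labelled library. Pecam1-positive cells numbered 148, 382, 9, 37 and 1614, and C1qa-positive cells 0, 1, 0, 0 and 1055 in the same sequence of libraries, and classes under 50 cells were not used. The classes bore their markers. The sum of 9 endothelial markers was 13252, 12718 and 9767 CPM in the 3 Pecam1-positive classes and at most 139 in Lrat-positive cells, and that of 8 macrophage markers was 14455 in C1qa-positive cells. Those C1qa-positive cells also held 8678 CPM of 6 hepatocyte genes, against 1711 in Lrat-positive cells of that library, and the part of this RNA in their levels was not tested.

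The library differences of the Hsp/Dnaj sum were also seen within Lrat-positive cells. There the Hsp/Dnaj sum had a log2 ratio of DEN+WAD over chow of -0.39 (-0.39 to -0.38) in VitA+ and 1.48 (1.47 to 1.49) in VitA- cells. In chow it had a log2 ratio of VitA- over VitA+ of -2.61 (-2.62 to -2.59). The Fos/Jun/Egr/Nr4a sum, by contrast, had a log2 ratio of VitA- over VitA+ after DEN+WAD of -0.09 in all cells and -0.0066 in Lrat-positive cells. Hspa1a stood at 445 in Lrat-positive VitA-Col1a1+ chow cells and 5261 in Lrat-positive VitA+Col1a1+ chow cells.

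In the library labelled VitA-Col1a1-, where all 3 classes came through 1 preparation, the Fos/Jun/Egr/Nr4a sum was 1.31% of UMIs in Lrat-positive, 1.16% in Pecam1-positive and 0.529% in C1qa-positive cells. C1qa-positive over Lrat-positive cells thus had a log2 ratio of -1.31 (-1.32 to -1.29), and -0.57 when every cell with a C1qa or Lrat UMI was counted in its class. The Hsp/Dnaj sum was 0.924%, 0.994% and 0.621%, so that the endothelial and stellate classes were close, with a log2 ratio of 0.10 (0.10 to 0.11). Its sign turned, to -0.053, when every cell with a Pecam1 or Lrat UMI was counted in its class. In the 2 Col1a1+ DEN+WAD libraries, Pecam1-positive cells had 1.32% (VitA+) and 1.29% (VitA-) of the early sum where Lrat-positive cells had 2.02% and 2.01%.

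**Figure D3:**
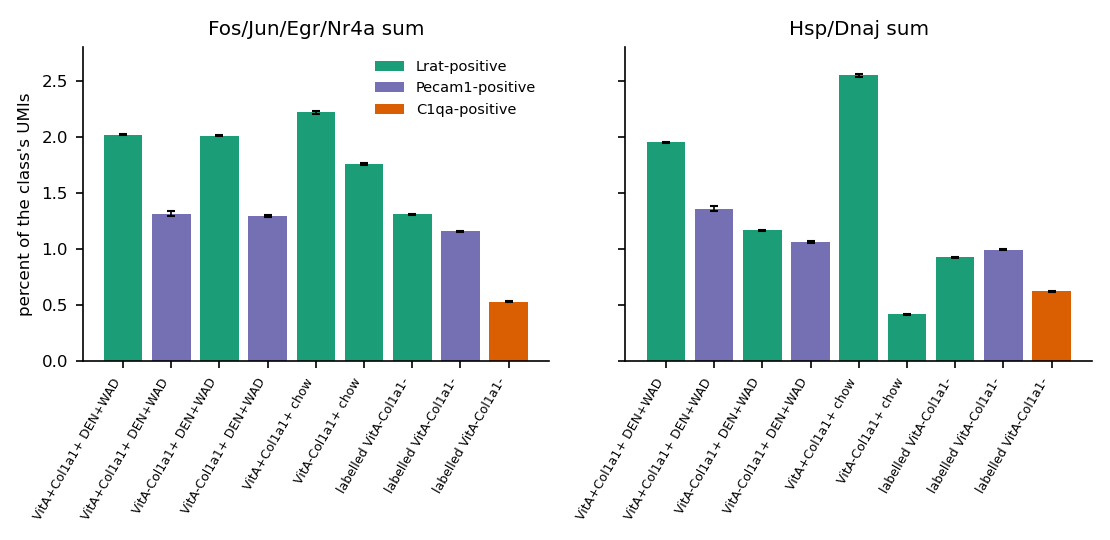
Share of UMIs, in percent, of the Fos/Jun/Egr/Nr4a sum and the Hsp/Dnaj sum in Lrat-positive, Pecam1-positive and C1qa-positive cells of each library with at least 50 such cells; bars start at 0 and lines are 95% counting intervals. Lrat-positive bars of the chaperone sum run from 2.55% in VitA+Col1a1+ chow to 0.417% in VitA-Col1a1+ chow, and the C1qa-positive bar of the early sum is the lowest.

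Single members stood on either side between the classes. Klf2 stood at 4159 CPM in Pecam1-positive, 1105 in Lrat-positive and 813 in C1qa-positive cells of the labelled library, and at 5216 and 4481 in the Pecam1-positive cells of the Col1a1+ DEN+WAD libraries. Fosl2, Ier3, Klf4 and Klf6 were also at least 2-fold higher in Pecam1-positive than in Lrat-positive cells, 5 of 33 members where 15.7% of 10193 genes were, a share near that of all genes. Fosb, Egr2 and Nr4a3 were at least 2-fold lower, 3 of 33 where 14.4% were. Egr2 stood at 38.8 in Lrat-positive and 4.84 in Pecam1-positive cells, and Nr4a3 at 58.6 and 12.4.

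Of C1qa-positive over Lrat-positive cells, 1 member was at least 2-fold higher (Egr3, 22.02 against 7.53) and 13 of 33 were lower, where 15.1% and 23.7% of 10246 genes were. Fos stood at 1075 against 2962, Jun at 1149 against 3321 and Hspb1 at 148 against 1085. Egr2, at 66.8, and Atf3, at 713, were not among the lower genes. The constitutive Hspa8 stood at 2267 in C1qa-positive and 1929 in Lrat-positive cells, on the other side from the chaperone sum.

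To see how single cells carried the genes, each cell was thinned to 2000 UMIs, which left 255, 10309, 2623, 647 and 8431 cells, in the order of libraries given first. The Fos/Jun/Egr/Nr4a sum had a median of 42, 40, 36, 32 and 21 UMIs per cell, and 0 in at most 1.01% of the cells of any library. The share of these UMIs that is free RNA was not measured. The Hsp/Dnaj sum had a median of 45, 36, 13, 6 and 14. Its spread differed more. The 10% of cells with the most held 22.1%, 22.3%, 36.5%, 37.8% and 30.0% of its UMIs, against 17.6% to 23.0% for the early sum. For the heat-inducible part of it, 0.392%, 2.46%, 12.3%, 25.8% and 14.2% of cells had no UMI at this depth.

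**Figure D4:**
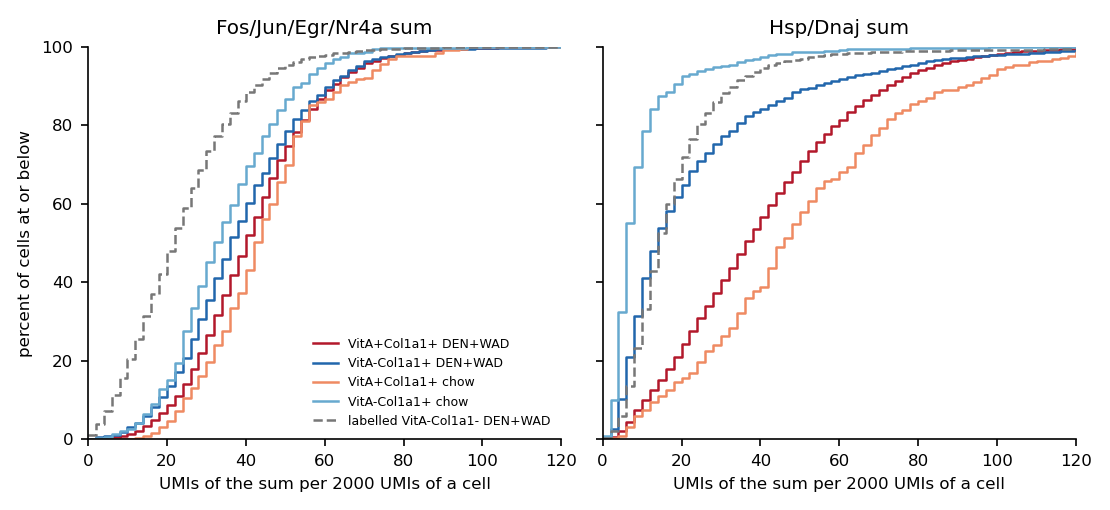
Cumulative percent of cells against the UMIs of each sum among 2000 UMIs per cell, 1 line for each library, with the axis ending at 120. Lines of the 4 Col1a1+ libraries run close together for the Fos/Jun/Egr/Nr4a sum, and fan out for the Hsp/Dnaj sum between medians of 45 and 6.

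In the 3 DEN+WAD libraries, cells that were high for 1 sum were more often high for the other, but most were not. A cell was called high when it was in about the top 10% of its library. In VitA+Col1a1+ DEN+WAD, 172 of 974 early-high cells were also chaperone-high (17.7%), against 8.77% of the rest. This was 1.84 times the product of both shares (95% counting interval 1.57 to 2.13). In VitA-Col1a1+ DEN+WAD it was 63 of 243 (25.9%) against 8.15%, a ratio of 2.65 (2.03 to 3.39), and in the labelled library 117 of 808 (14.5%) against 8.79%, a ratio of 1.55 (1.28 to 1.86). In the chow libraries the ratio was 2.45 (0.898 to 5.33) in VitA+, with 6 of 25 cells, and 1.49 (0.682 to 2.83) in VitA-, with 9 of 64. Both intervals held 1 and rest on few cells, so no difference from the DEN+WAD libraries is read. Within classes the ratio was 2.41 (1.204 to 4.32) in Lrat-positive cells of VitA-Col1a1+ chow, where 11 of 46 early-high cells were high for both, 2.24 (1.59 to 3.08) in the same class of that gate after DEN+WAD and 2.19 (0.712 to 5.12) in that of VitA+Col1a1+ chow. It was 1.80 in Lrat-positive cells of VitA+Col1a1+ DEN+WAD, 1.26 (0.849 to 1.80) in those of the labelled library, 2.38 in its Pecam1-positive cells and 2.28 in its C1qa-positive cells. Of the 10309 cells of VitA+Col1a1+ DEN+WAD, 174 lay at the early threshold or 1 UMI under it and 117 at the chaperone threshold.

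**Figure D5:**
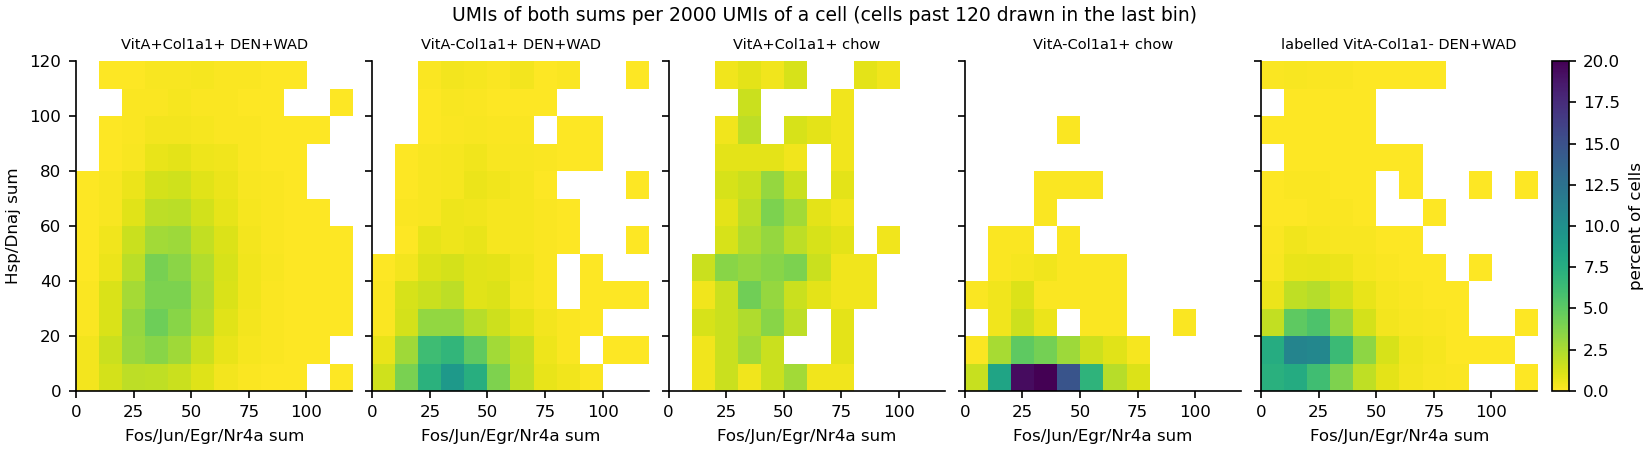
Percent of cells in bins of 10 UMIs of the Fos/Jun/Egr/Nr4a sum and of the Hsp/Dnaj sum, for cells thinned to 2000 UMIs, 1 panel for each library; cells past 120 are in the last bin. The cloud of VitA+Col1a1+ DEN+WAD leans upward, from a median of 23 chaperone UMIs in the lowest 10% of the early sum to 46 in the highest, whereas that of VitA-Col1a1+ chow lies flat along the early axis, at 5 and 6.

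Across cells the Spearman correlation of the 2 sums was 0.23 over 10309 cells of VitA+Col1a1+ DEN+WAD, 0.13 over 2623 of VitA-Col1a1+ DEN+WAD and 0.16 over 8431 of the labelled library. In chow it was 0.13 over 255 VitA+Col1a1+ cells and -0.0087 over 647 VitA-Col1a1+ cells. The cells of each value share a library and a thinned depth. When the labelled library was split into 4 sets of cells by UMIs before thinning, the correlation was 0.30 in the set of fewest UMIs, 0.0015 and 0.037 in the middle sets and 0.23 in the set of most. Members differed in which sum they tracked in 9980 Lrat-positive cells of VitA+Col1a1+ DEN+WAD. Fos had 0.44 with the other early genes and 0.05 with the Hsp/Dnaj sum. Jun had 0.43 and 0.31. Egr1 had 0.34 and 0.22, and Btg2 0.21 and 0.26, so that Jun, Egr1 and Btg2 stood nearer the chaperones than Fos or Zfp36 (0.27 and -0.03). Among chaperones, Hspa1b had 0.74 with the rest of its sum, Hspa1a 0.68 and Hsp90aa1 0.63. Members too sparse at this depth, such as Nr4a2 with a mean of 0.05 UMIs per cell, are not read.

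Other genes were compared between Lrat-positive cells in the top 10% of a sum and those at or below the median of it in VitA+Col1a1+ DEN+WAD. For the early sum (962 against 4868 cells) the non-member genes with the highest ratios included Socs3, a brake on cytokine signals (577 against 285, 2.02-fold), the small GTPase gene Rrad (1.87-fold) and the stress cytokine Gdf15 (1.78-fold). For the Hsp/Dnaj sum (983 against 4980 cells) they included the heme oxygenase Hmox1 (57.6 against 22.3, 2.59-fold), Zfand2a, an arsenite- and heat-inducible gene (2.21-fold), Hsp90ab1 (5456 against 2623) and Phlda1 (3010.1 against 1543). Few genes were that far apart. Of 9331 genes, 0.182% were at least 2-fold higher and 0.643% at least 2-fold lower in early-high cells, and of 9335 genes 0.204% and 0.911% in chaperone-high cells. These shares include members. Of the 17 higher genes in early-high cells 8 were members, 6 of them from the sum that picked the cells. Of the 19 in chaperone-high cells 13 were members, 11 of them from that sum.

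Stellate activation genes were lower in the high cells of that library. In early-high cells 6 of the 8 genes of that list were at least 2-fold lower, with Acta2, the smooth muscle actin of myofibroblasts, at 14.8 against 182 and Col1a1 at 95.8 against 445. In chaperone-high cells 6 of 8 were as well, with Acta2 at 25.7 against 167 and Col1a1 at 89.7 against 468. VitA-Col1a1+ DEN+WAD had the same directions for these 2 genes, with Acta2 ratios of 0.0767 (early) and 0.401 (chaperone). The labelled library parted from this. There Acta2 was lower in early-high cells, at 0.111-fold, where early-high cells had a median of 8773.5 UMIs and cells at or below the median 12978. It was higher in chaperone-high cells, at 3881 against 1327, together with Thbs1 (5.76-fold) and Ankrd1 (13.3-fold), which are known targets of YAP.

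Outside VitA+Col1a1+ chow, more of the stellate markers were higher than lower in the chaperone-high Lrat-positive cells. Of 10 stellate markers, 8 were higher in them in VitA-Col1a1+ chow, 9 in that gate after DEN+WAD and 7 in the labelled library. All measured portal fibroblast markers of the VitA- gate, 7 in chow and 8 after DEN+WAD, were lower. In the VitA+ gate, 2 of the 10 stellate markers were higher in chaperone-high cells in chow and 6 after DEN+WAD. Portal fibroblast markers were lower in chaperone-high cells outside the VitA- gate as well, 8 of 8 in VitA+Col1a1+ DEN+WAD and 7 of 8 in the labelled library, and 2 of 4 measured in VitA+Col1a1+ chow. In cells high for the early sum, 8 of 8 were lower in the VitA+ gate after DEN+WAD and 3 of 4 measured in chow. By contrast, 6 of 8 were higher in early-high cells of VitA-Col1a1+ chow and 5 of 8 in those of the labelled library. In each of these 2 libraries 7 of 10 stellate markers were higher in early-high cells as well. In VitA-Col1a1+ chow, Reln stood at 689 in chaperone-high cells against 40.7 in cells at or below the median, Ecm1 at 3259 against 626 and Lrat at 950.4 against 442. The portal fibroblast marker Gas6 stood at 877 against 1908 and Dpt at 1482 against 2549. In VitA-Col1a1+ DEN+WAD, Ngfr stood at 275 against 50.3, Ecm1 at 8158 against 4137, Gas6 at 122 against 955 and Dpt at 134 against 872. In VitA-Col1a1+ DEN+WAD cells high for the early sum, 7 of the 10 stellate and 4 of the 8 portal fibroblast markers were higher, with Gas6 at 697 against 548 and Ecm1 at 6207 against 5045. In VitA-Col1a1+ chow, the 220 cells at or below the median had a median of 22793 UMIs and the 46 chaperone-high cells 21220, so the 2 sets had similar depth.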

How the data were processed

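Single cells of mouse liver were measured by 10x Genomics 3′ single-cell RNA sequencing in 5 libraries, 1 for each group. The authors aligned the reads to mm10 and counted them with Cell Ranger. The deposited matrices hold raw UMI counts of 31053 genes per cell, and their headers name version 3.1.0 for the 4 Col1a1+ libraries and 6.1.2 for the library labelled VitA-Col1a1-. All cells deposited were used (at least 500 UMIs each), and doublets were not called, beyond leaving cells positive for more than 1 class gene out of the classes.

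The counts of a gene over all cells of a library were scaled to 1000000 UMIs (CPM). With 1 library in each group no test was made. Intervals are 95% exact Poisson intervals of a level or exact binomial intervals of a ratio, and cover counting error only. A difference of size was a ratio of at least 2 among genes with a mean of at least 5 CPM over the libraries compared. Cells were thinned without replacement to 2000 UMIs (seed 7) for sums per cell, leaving out cells below that depth. The ratio of cells high for both sums was taken over the product of both shares.

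The 35 members and the other lists were chosen with earlier results of these data known. Every member of at least 10 CPM in a library was given in each, and other genes were named from fixed lists, at most 4 from each, by size of ratio. Genes outside these lists, named for cells high in a sum, were picked from these same data by size of ratio. Markers printed for the cells high in chaperones were picked from the marker lists after their values were seen. Alternatives were TMM factors (edgeR 4.0.16), Lrat-positive cells only, means over cells, a filter on cells, other thresholds and depths, and sums without their most abundant member. The order of libraries, its alternatives, and the TMM and Lrat-positive values of the VitA comparisons were added after the data were seen. Scripts used numpy 2.4.6, pandas 2.3.3 and scipy 1.17.1 under Python 3.11.15 and were tested on simulated data.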

Additional observations from a re-analysis of the deposited data

Results flagged for a closer look

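The log2 ratio of DEN+WAD over chow pointed up in VitA-Col1a1+ and down in VitA+Col1a1+ cells, outside the counting interval of both and at least 1 apart, for the Hsp/Dnaj sum and 10 of its 11 genes. The difference (VitA- minus VitA+) was 1.68 for the sum, 2.34 for Hspa1a, 2.66 for Hspa1b, 2.14 for Dnajb1, 1.09 for Dnaja1, 1.76 for Dnaja4, 1.72 for Hsph1, 1.21 for Hsp90aa1, 1.22 for Hspe1, 1.23 for Hspa8 and 1.45 for Hspb1. Egr3, scarce at no more than 11.4 CPM in any library, pointed the other way, with a difference of -1.19. Each side is a pair of single libraries, so none of these differences was tested. TMM scaling put the VitA+ ratios of Dnaja1 and Hsp90aa1 above 1, which ends the opposite direction for these 2 genes. No group held enough libraries for a search for outlying samples.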

How the results depend on the processing

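Of 58 recomputed values, 20 stayed within the counting interval or within 1.5 times the count reported, 36 moved past it and 2 changed sign. Depth was high enough that counting intervals were narrow, so most moves were small. In the VitA+Col1a1+ pair the Fos/Jun/Egr/Nr4a sum (log2 DEN+WAD over chow) became 0.071 with TMM factors, -0.14 in Lrat-positive cells, -0.094 as a mean over cells and -0.091 without Jun, and the Hsp/Dnaj sum became -0.19, -0.39, -0.33 and, without Hspa1a, -0.40. In the VitA-Col1a1+ pair the early sum became 0.22 with TMM factors, 0.19 in Lrat-positive cells and 0.024 without Jun, and the Hsp/Dnaj sum 1.38, 1.48, 1.25 as a mean over cells and 1.17 without Hspa1a. Of VitA- over VitA+ cells after DEN+WAD, the early sum became -0.30 with TMM factors and -0.0066 in Lrat-positive cells, and the Hsp/Dnaj sum -1.05 and -0.74. In chow the early sum became -0.44 with TMM factors and the Hsp/Dnaj sum -2.62, and -2.61 in Lrat-positive cells. Members at least 2-fold apart became 6 (VitA+) and 17 (VitA-) at a fold of 1.5, and 2 (VitA+) with no filter, and members in the order of the libraries 10 with TMM factors. The ratio of cells high for both sums became 2.84 in the top 5%. In the labelled library, Pecam1-positive over Lrat-positive cells gave -0.31 (early) and -0.053 (Hsp/Dnaj) with any cell holding a UMI, -0.19 and 0.093 with at least 2 UMIs of the class gene, and -0.19 and 0.18 as means over cells. C1qa-positive over Lrat-positive cells gave -0.57 and -0.25 with any cell, -1.46 and -0.65 with at least 2 UMIs, and -0.42 for the Hsp/Dnaj sum as a mean over cells. The cause of these moves was not tested. No paired analysis was possible because each group is 1 library, and no replicate could be left out.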
